A study of Mus musculus with 7 samples.

Results

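The fibrinogen gene cluster is a group of 3 neighboring genes, Fgg, Fga and Fgb, on mouse chromosome 3. Its members were taken as all deposited CTCF and Rad21 peaks that overlapped the mm9 span of these genes extended by 100 kb on each side (chr3:82711781-82953725, 241.945 kb). This window held 16 of 76683 CTCF peaks, 15 of 67369 Rad21 peaks and 10 of 52436 CTCF sites of the deposited class list. The study mapped CTCF and Rad21 binding by ChIP-seq in the liver of male Crl:CD1(ICR) mice, an outbred stock, aged 8 weeks, with a Millipore anti CTCF or an Abcam anti Rad21 antibody. Its purpose was to find which CTCF sites anchor domains and the smaller loops inside them. The labels give no treatment and no engineered allele. There were 4 CTCF and 3 Rad21 samples, and each list pools the samples of its antibody, which leaves all values below without a measure of the variation from mouse to mouse.

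Fibrinogen is the soluble plasma protein that thrombin cuts to form the fibrin of a blood clot. It is built from pairs of an Aα chain (Fga), a Bβ chain (Fgb) and a γ chain (Fgg), which hepatocytes assemble and secrete, and the genes of all chains are induced together by interleukin-6 in the acute phase response. CTCF is a zinc finger protein that binds a long motif with a direction. Cohesin, a ring complex of which Rad21 is a subunit, tends to stop at CTCF sites, and loops of chromatin form mostly between CTCF motifs that point toward each other. A site bound by both is called a CAC (cohesin-and-CTCF) site, and a cohesin site without CTCF is called CNC (cohesin-non-CTCF).

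The order of the genes along the plus strand was Fgg, Fga, Fgb. Fgg (ENSMUSG00000033860.7) spans chr3:82811781-82818975 on the plus strand, and Fga (ENSMUSG00000028001.9) spans chr3:82830075-82838036 on the same strand. Fgb (ENSMUSG00000033831.4) spans chr3:82846169-82853725 on the minus strand, so that Fga and Fgb face each other with their 3′ ends, 8.132 kb apart. From the start of Fgg to the start of Fgb the cluster takes 41.945 kb, which is called the gene span below. The window also reached all of Plrg1, a splicing factor gene on the plus strand (chr3:82859444-82876277), and Gm10710 on the minus strand (chr3:82929198-82933168). Positions of peaks are given as the distance of the summit from the start of Fga, upstream being the side of Fgg and downstream the side of Fgb and Plrg1.

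In the class list, 7 of the 10 sites carried a CTCF motif with a strand (82.6% of all class list sites did). The motif letters below are those of the best match within 100 bp of the summit to a CTCF motif matrix that was learnt from TAD anchors on other chromosomes, read 5′ to 3′ along the motif from the mm9 genome. They are shown because the direction of each motif sets the order of anchors around the genes. Capitals mark the 19 bases of the motif, and the lower case bases are 5 flanking bases on each side.
Intra-TAD anchor, 41.1 kb upstream, minus strand, chr3:82788942-82788970: cattaTCCACTAGGGGGAGTGATAtggcc
Intra-TAD anchor, 30.5 kb upstream, minus strand, chr3:82799527-82799555: ggctgGCCAGCAGGAGGCGTGGGTccagc
Intra-TAD anchor, 27.0 kb upstream, plus strand, chr3:82803109-82803137: actccACCAGAAGGTGGCAGTATAgcatt
Intra-TAD anchor, 23.7 kb upstream, plus strand, chr3:82806314-82806342: agatgGCCTGTAGGTGGCGAGAGTgagca
Other CAC site, 27.8 kb downstream, minus strand, chr3:82857813-82857841: ttctgGACAGTAGAGGTCACTATGgctct
TAD anchor, 54.8 kb downstream, minus strand, chr3:82884881-82884909: cagaaGCCAGAAGAGGACGACATAtcccc
TAD anchor, 84.2 kb downstream, plus strand, chr3:82914280-82914308: ttatgGCCACAAGGTGGCAATGTTctgag
All 7 matches lay on the strand of the class list. On chromosome 3 as a whole, 98.5% of 1839 such sites did. The 7 motif sites lie outside the gene span, 4 upstream of Fgg and 3 beyond the start of Fgb.

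**Figure D1:**
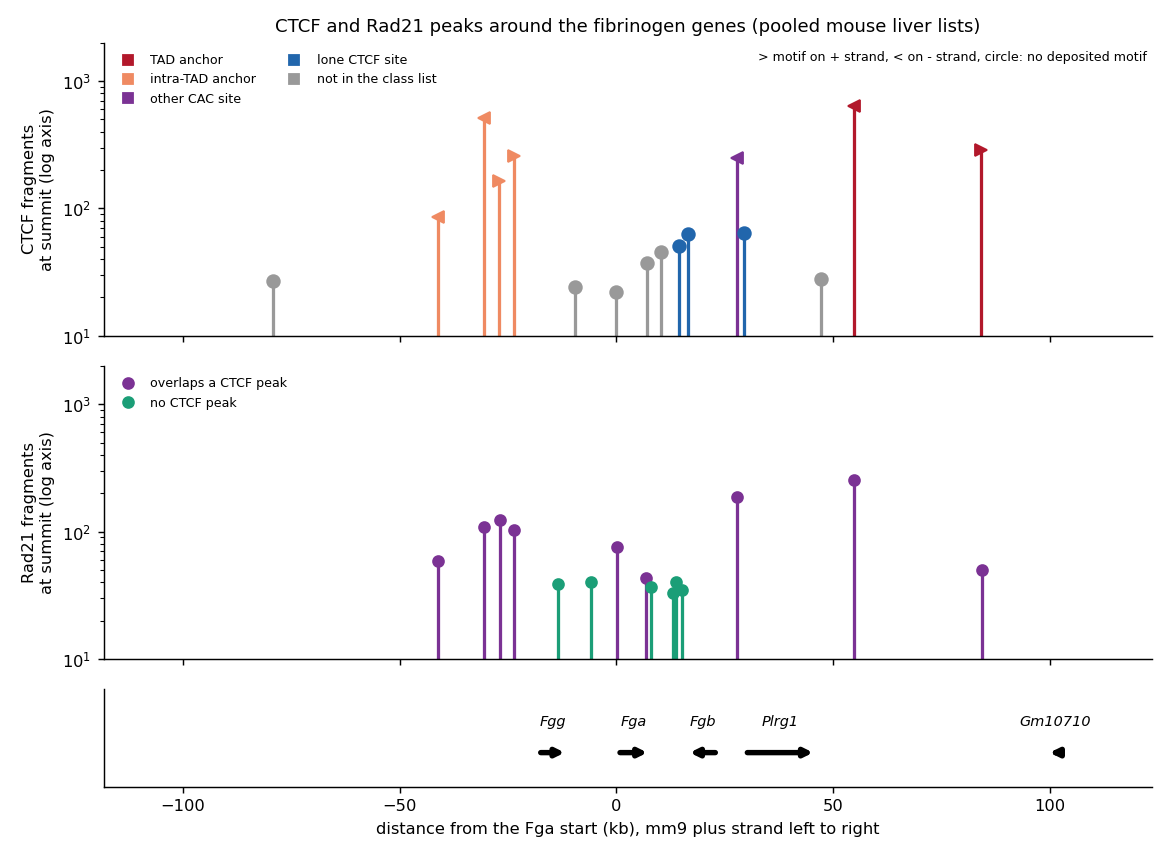
The plot shows fragments at the summit of each CTCF peak (upper panel) and each Rad21 peak (middle panel) on log axes against the distance from the Fga start in kb, with genes as arrows in the direction of transcription (lower panel). The tall CTCF peaks with a motif, 85 to 635 fragments, stand on both sides of the genes, while the 6 CTCF peaks between the starts of Fgg and Fgb have 22 to 63 fragments, and all 6 Rad21 peaks without CTCF lie among the genes.

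On the upstream side the 4 motif sites were all intra-TAD anchors, the class of site at the ends of predicted loops inside a domain (topologically associating domain, TAD). They lay in a stretch without a protein-coding gene. Strength was taken as the number of pooled fragments at the summit, which was recovered from the deposited fold and p-value, with an exact Poisson 95% interval that covers counting error only. The outermost site, 41.1 kb upstream, had 85 CTCF fragments (95% interval 67.9 to 105), and the site 30.5 kb upstream had 515 (471 to 561), the second highest in the window. Both carry a minus strand motif, which points away from the genes. The site 27.0 kb upstream had 163 (139 to 190) and the innermost one, 23.7 kb upstream and 5444 bp from the start of Fgg, had 256 (226 to 289). These inner sites carry plus strand motifs that point toward the genes, so the sites 30.5 and 27.0 kb upstream, 3.562 kb apart, point away from each other.

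Rad21 was present at all 4 upstream anchors. This largely follows from the class, since the study chose intra-TAD anchors among sites bound by both factors. The Rad21 count was 59 (95% interval 44.9 to 76.1) at the site 41.1 kb upstream and 108 (88.6 to 130) at the site 30.5 kb upstream. It was 123 (102 to 147) and 103 (84.1 to 125) at the inner pair. The counts of 123, 108 and 103 were not separated by the test of neighboring ranks given below. For each CTCF fragment the strongest CTCF site of the 4 had 0.210 Rad21 fragments (95% interval 0.169 to 0.259) and the weakest had 0.694 (0.489 to 0.979).

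On the downstream side the first motif site lay 27.8 kb from the start of Fga, 4122 bp beyond the start of Fgb and 1597 bp before the start of Plrg1. It was classed as another CAC site, one bound by both factors that is neither kind of anchor. It had 247 CTCF fragments (217 to 280) and 186 Rad21 fragments (160 to 215), the second highest Rad21 count in the window, and its minus strand motif points toward the fibrinogen genes. Beyond Plrg1 lay 2 TAD anchors, sites at the borders of domains. The one 54.8 kb downstream had the highest count of both factors, with 635 CTCF (587 to 686) and 256 Rad21 fragments (226 to 289), and a minus strand motif. The other one, 84.2 kb downstream with a plus strand motif, had 285 CTCF (253 to 320) but 50 Rad21 fragments (37.1 to 65.9). Between Plrg1 and these anchors, a weak CTCF peak 47.3 kb downstream with 28 fragments (18.6 to 40.5) was not in the class list and had no Rad21. The TAD anchors, 29.382 kb apart, point away from each other, and no CTCF peak followed before 196 kb downstream, outside the window. On the upstream side the nearest CTCF peak outside the window lay 122 kb from the start of Fga, and the outermost one inside it, 79.2 kb upstream, was weak (27 fragments, 17.8 to 39.3) and not in the class list.

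The nearest anchors around the start of each fibrinogen gene were the same pair, the plus strand site 23.7 kb upstream and the minus strand TAD anchor 54.8 kb downstream, 78.555 kb apart. All 3 gene starts therefore lay between anchors that point toward each other. Over all protein-coding genes with an anchor on both sides, 34.9% of 21997 were so placed, with a median distance of 180 kb between the anchors (median over the convergent pairs), which puts the fibrinogen pair below the median. When all class list sites with a motif were counted, of any class, the downstream partner became the site 27.8 kb downstream, and the interval narrowed to 51.51 kb (27.8% of 22190 genes, median 52.4 kb). That interval holds Fgg, Fga and Fgb and no other protein-coding gene. An order of strands is a description of these sites, and the study used the strand to choose both kinds of anchor. Its TAD anchors were taken in pairs that point away from each other, so the order of the 2 TAD anchors here, and a TAD anchor as convergent partner, follow in part from that choice.

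Inside the 51.51 kb interval the CTCF list held 6 peaks, all within the gene span, none an anchor. Between Fgg and Fga, a peak 9.57 kb upstream of the start of Fga had 24 fragments (95% interval 15.4 to 35.7). The peak nearest to a fibrinogen gene start lay 131 bp upstream of the start of Fga and had 22 fragments (13.8 to 33.3), the lowest count in the window and higher than only 3.68% of all CTCF peaks. A peak 6.96 kb downstream, in a coding exon of Fga, had 37 (26.1 to 51.0). Between the 3′ ends of Fga and Fgb lay a peak 10.2 kb downstream with 45 fragments (32.8 to 60.2) and a peak 14.5 kb downstream with 51 (38.0 to 67.1). The sixth peak, 16.4 kb downstream, lay in a coding exon of Fgb, 315 bp inside its 3′ end, and had 63 (48.4 to 80.6). All of these counts fell below the weakest motif site of the window. None of the 6 had a motif strand in the class list, and 4 of them were not in the class list while the 2 nearest to Fgb, 14.5 and 16.4 kb downstream, were lone CTCF sites, the class without Rad21.

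One of these weak peaks did hold a match to the learnt CTCF matrix. It is the peak 10.2 kb downstream, between the 3′ ends of Fga and Fgb, which was not in the class list, and it is shown as the only match at a peak of the gene span (the sequence between peaks was not searched), with the motif in capitals.
CTCF peak 10.2 kb downstream, plus strand, chr3:82840279-82840307: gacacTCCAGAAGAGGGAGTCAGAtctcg
With 45 CTCF fragments and no Rad21 peak it was a CTCF site without cohesin in these lists. Over chromosome 3, the matrix found a match at 59.6% of CTCF peaks with Rad21, at 54.9% of those without and at 4.22% of CNC peaks.

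The gene span held 8 Rad21 summits, 6 of them in Fga and between the 3′ ends of Fga and Fgb. At Fgg there was 1, in an intron 13.4 kb upstream of the start of Fga, with 39 fragments (95% interval 27.7 to 53.3). Between Fgg and Fga there was 1, 5.78 kb upstream, with 40 (28.6 to 54.5). Fga carried 3, of which the strongest in the gene span lay in its first intron, 0.133 kb downstream of the start, with 76 fragments (59.9 to 95.1). The others at Fga were a peak in a coding exon 6.93 kb downstream with 43 (31.1 to 57.9) and a peak 7.94 kb downstream with 37 (26.1 to 51.0), 474 bp beyond the 3′ end of the longest Fga transcript and inside the span of a shorter one. Between Fga and Fgb there were 3, at 13.1, 13.7 and 15.2 kb downstream, with 33 (22.7 to 46.3), 40 (28.6 to 54.5) and 35 (24.4 to 48.7). Fgb carried no Rad21 summit. The counts of 7 of these 8 peaks lay between 33 and 43 with intervals that overlap, and the one at the start of Fga was the exception.

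In the window 6 of 15 Rad21 peaks were CNC, against 22.7% of all Rad21 peaks. These peaks were weak, and among peaks with a score of at least 100 the window held 9 Rad21 peaks, of which 2 were CNC, 1 of the 6 and the peak at the start of Fga, whose CTCF partner fell below that score. All 6 lay in the gene span, none in either flank: 1 in Fgg, 1 between Fgg and Fga, 1 at the 3′ end of Fga and 3 between the facing 3′ ends. Their counts of 33 to 40 fragments were close to each other and above the median of 29 over all CNC peaks. Their fold over the local background was 2.5 to 4.08, with a median of 2.72, below the median of 3.35 over all CNC peaks, with a median local background of 12.5 fragments against 7.42. None of the 6 held a match to the learnt CTCF matrix. The peak 5.78 kb upstream of Fga had the lowest background of the 6 (9.05 fragments) and the highest score (117, against 42 to 76 for the others).

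**Figure D2:**
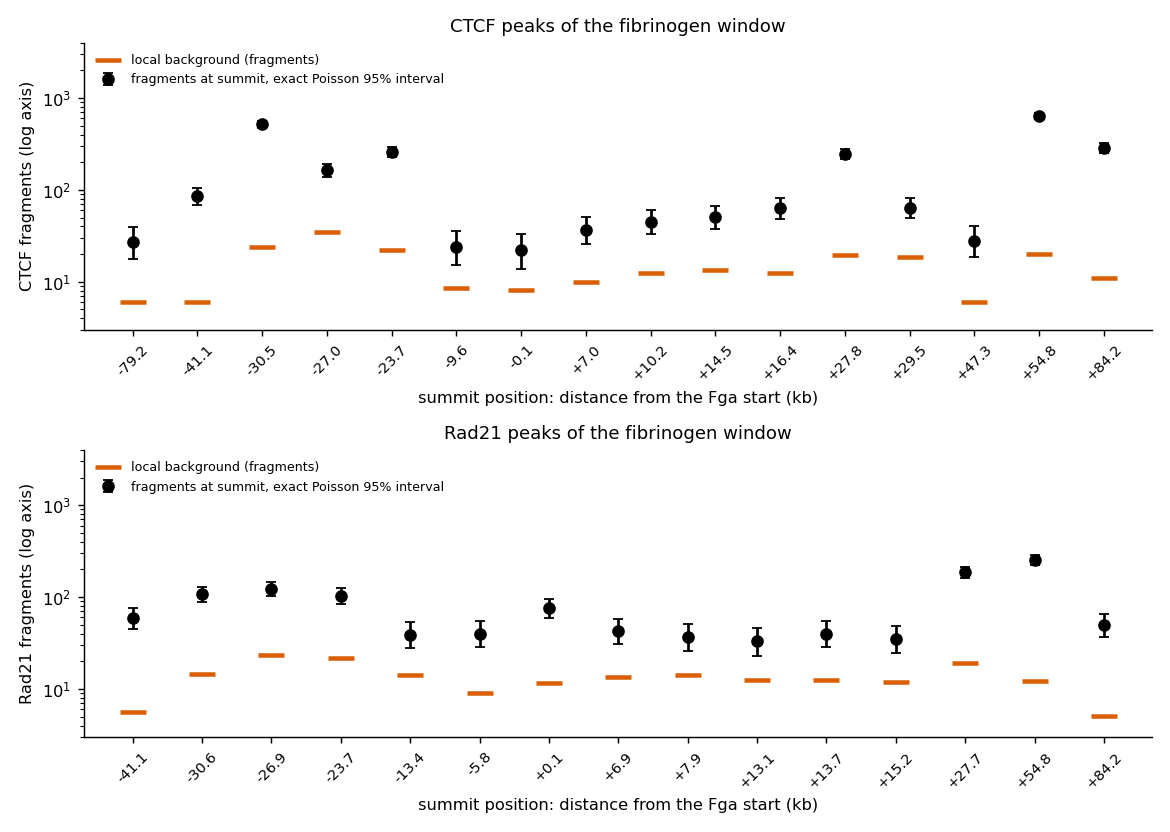
Points give the fragments at the summit of each window peak with exact Poisson 95% intervals, and orange bars the local background in fragments, on log axes, with peaks in order along the chromosome and labelled by the distance from the Fga start in kb (minus for upstream). The interval of every peak lies above its background, and the lowest folds over background, 2.52 for CTCF at the Fga start and 2.5 for Rad21 13.1 kb downstream, are those of peaks among the genes.

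The local background at the peaks in the gene span lay above the genome-wide level of each list and, for CTCF, below that at most strong peaks of the flanks. This background is the number of fragments that the peak caller expected by chance at the site. Its genome-wide level was 5.99 fragments in the CTCF list, at which 26.7% of all peaks stood, and 5.13 in the Rad21 list (18.3% of all peaks). In the gene span it ran from 8.11 to 13.3 at the CTCF peaks, 1.35 to 2.23 times that level, and from 9.05 to 14.2 at the Rad21 peaks, 1.76 to 2.77 times that level. The median over the 6 CTCF peaks was 11.2 fragments, against 19.3 over the 10 CTCF peaks outside and 8.87 over the whole list, and the peaks 9.57 kb (8.64) and 0.131 kb (8.11) upstream lay below the whole-list median. All 8 Rad21 peaks lay above the whole-list median of 8.10. The background stood at the genome-wide level at the CTCF peaks 79.2 kb upstream and 47.3 kb downstream and at the Rad21 peak 84.2 kb downstream, and it was highest at the anchor 27.0 kb upstream (34.9 for CTCF and 23.3 for Rad21), which has strong peaks on both sides. The deposited values do not show whether an input sample entered the background, and the part of the background in the weak peaks among the genes was not tested.

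**Figure D3:**
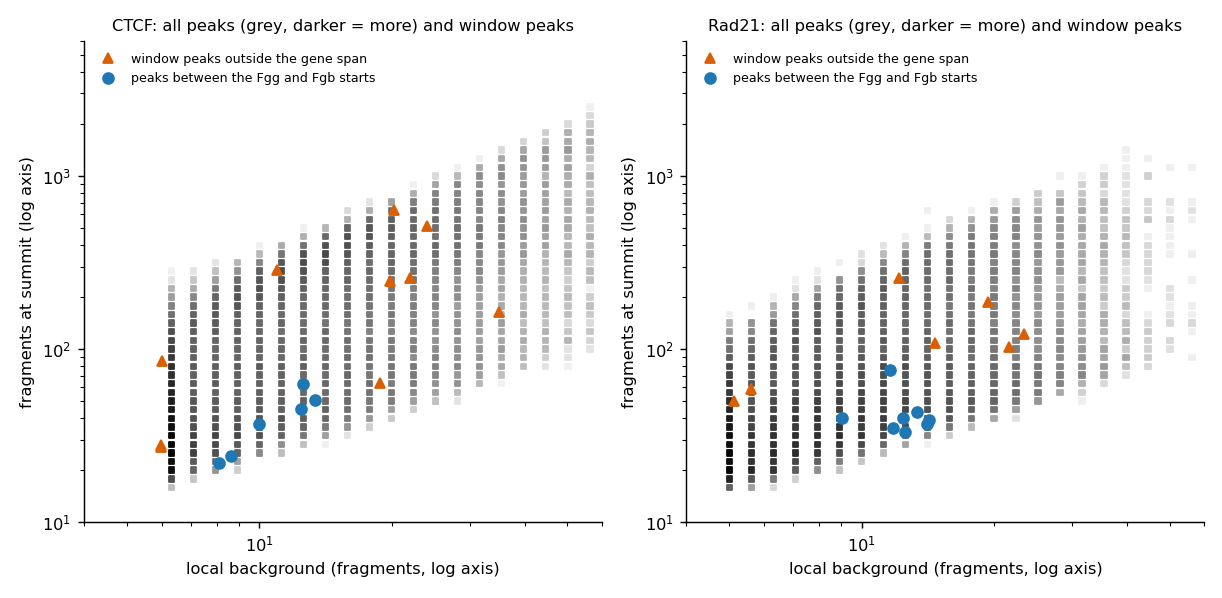
Fragments at the summit are plotted against the local background for all CTCF peaks (left) and all Rad21 peaks (right) as grey squares, darker for more peaks, on log axes, with the window peaks in color. The peaks between the starts of Fgg and Fgb (circles) lie at a background of 8.11 to 13.3 for CTCF and 9.05 to 14.2 for Rad21 and near the lower edge of the cloud, and the Rad21 peak of 76 fragments at the start of Fga lies above the others.

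Of the 2 co-bound sites in the gene span, the one at the start of Fga had the higher ratio of Rad21 to CTCF. Here the Rad21 peak of 76 fragments overlapped the CTCF peak of 22, a ratio of 3.45 Rad21 fragments for each CTCF fragment (95% interval 2.13 to 5.83). Of all co-bound CTCF peaks, 99.7% had a lower ratio, and the median was 0.562. The summits were 264 bp apart, on either side of the start, CTCF before it and Rad21 in the first intron. The peaks were counted as co-bound because their edges overlap, and with summits within 100 bp of each other required, the Rad21 peak would count as CNC.

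The other 8 co-bound sites of the window had ratios from 0.175 to 1.16. The coding exon site of Fga had 1.16 (0.731 to 1.85), with summits 32 bp apart. At the 7 motif sites the ratio was 0.175 at the TAD anchor 84.2 kb downstream, 0.210 at the anchor 30.5 kb upstream, 0.402 at the anchor 23.7 kb upstream and 0.403 at the TAD anchor 54.8 kb downstream. It was 0.694 at the anchor 41.1 kb upstream, 0.753 at the CAC site 27.8 kb downstream and 0.755 at the anchor 27.0 kb upstream. The Rad21 summit was displaced toward the 3′ end of the motif at all 7 of these sites, by 2 to 46 bp, and the median over all co-bound motif sites was 17 bp. For the sites 27.0 and 23.7 kb upstream and 27.8 and 54.8 kb downstream this was toward the genes. For those 41.1 and 30.5 kb upstream and 84.2 kb downstream it was away from them. The shift was 2 bp at the sites 41.1 kb upstream and 54.8 kb downstream and 6 bp at the one 23.7 kb upstream. No error of the summit position is available, so no side can be assigned at these sites.

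**Figure D4:**
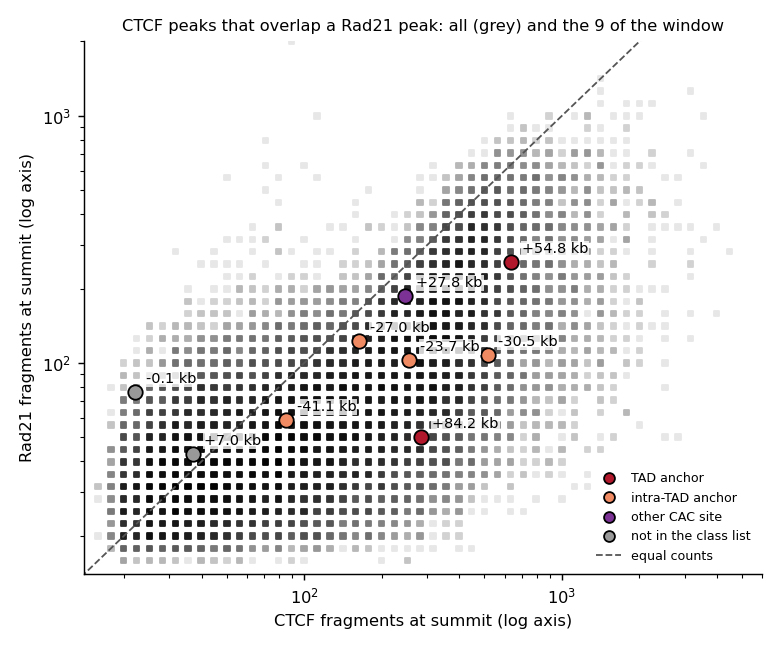
Rad21 fragments are plotted against CTCF fragments at the summit on log axes for all CTCF peaks that overlap a Rad21 peak (grey squares, darker for more) and for the 9 of the window, colored by class and labelled by the distance from the Fga start (minus for upstream). The site at the start of Fga, 22 CTCF against 76 Rad21 fragments, lies far to the left of the dashed line of equal counts, and the 7 motif sites lie to the right of it.

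Rad21 overlapped 9 of the 16 CTCF peaks of the window (67.3% in the whole list) and 10 were in the class list (68.4% of all). All 7 sites with a motif were co-bound, and of the 9 without a listed motif 2 were, both at Fga. The study required Rad21 for intra-TAD anchors and other CAC sites, and its absence for lone sites. This split therefore follows in part from the classes. The classed sites comprised 4 intra-TAD anchors, 2 TAD anchors, 1 other CAC site and 3 lone CTCF sites, where these classes make up 17.3%, 11.2%, 51.4% and 20.1% of the whole class list, in that order. The class list also flagged each site for overlap with other proteins, the alternative cohesin subunits Stag1 and Stag2 and the DNA topoisomerase Top2b. The columns have no header, and these names rest on the order used in the study. Stag1 and Stag2 were flagged at 7 of 7 motif sites and at 0 of 3 lone sites, against 70.6% and 88.1% of all classed sites. Top2b was flagged at 4 of 7 motif sites, those 30.5 and 27.0 kb upstream and 27.8 and 54.8 kb downstream (54.8% of all classed sites). The third lone site, 29.5 kb downstream, carried the Top2b flag without the cohesin flags. It lay in an untranslated exon of Plrg1, 92 bp inside the gene, with 64 CTCF fragments (49.3 to 81.7).

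Neighbors in the order of strength were compared by an exact two-sided conditional binomial test of their counts, with Benjamini-Hochberg adjustment over all 29 pairs of neighboring ranks, a test of sites within a pool and not of mice. The adjusted p was under 0.05 for 6 pairs. The TAD anchor 54.8 kb downstream exceeded the anchor 30.5 kb upstream in CTCF (635 against 515, exact test, adjusted p = 0.00258), which exceeded the TAD anchor 84.2 kb downstream (285, exact test, adjusted p = 1.03e-14). The next sites, of 285, 256 and 247 fragments, were not separated (exact test, adjusted p of 0.663 and 1). The CAC site of 247 exceeded the anchor 27.0 kb upstream (163, exact test, adjusted p = 0.000378), and this exceeded the anchor 41.1 kb upstream (85, exact test, adjusted p = 1.2e-05). For Rad21 the TAD anchor 54.8 kb downstream exceeded the CAC site 27.8 kb downstream (256 against 186, exact test, adjusted p = 0.00488), and that site exceeded the anchor 27.0 kb upstream (123, exact test, adjusted p = 0.00258). No other neighbors were separated, among them neighbors within the weak peaks of the gene span. Sites further apart in rank were not compared, so this does not show that the weak peaks are alike. In the gene span the lowest CTCF count, 22 (13.8 to 33.3), and the highest, 63 (48.4 to 80.6), had intervals that did not overlap. The Rad21 peak at the start of Fga (76) was not separated from the anchor ranked above it (103, exact test, adjusted p = 0.214). Nor was it separated from the anchor ranked below it (59, exact test, adjusted p = 0.542).

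Peaks were more frequent than around most genes, and CNC peaks most of all. In windows of 100 kb on either side of a gene, the fibrinogen window had 6.61 CTCF peaks per 100 kb (median over 22380 protein-coding genes 5.43, with 59.8% of genes lower) and 6.20 Rad21 peaks (median 4.52, 64.4% lower). For CNC peaks it had 2.48 per 100 kb against a median of 0.488, with 88.7% of genes lower. The difference lay in the gene span. In windows of the same 41.945 kb centered on each protein-coding gene, the median was 2 Rad21 peaks and 0 CNC peaks, against 8 and 6 in the fibrinogen gene span, and 3.11% and 0.188% (42 genes) had at least as many. With a score of at least 100, an alternative chosen after seeing the data, the gene span held 2 CNC peaks and 3.36% of genes (752) had at least as many. For CTCF peaks the median was 2 against 6, with 13.9% of genes at or above it. Windows of nearby genes overlap, so these shares describe the lists and are no test.

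Among facing gene ends up to 20 kb apart, of which the annotation has 2715 pairs, 5.12% had a CNC summit between them. Fga and Fgb were 1 of 2 pairs (0.0737%) with 3 or more, a comparison that was chosen after the values were seen. None of the 3 peaks between them reached a score of 100.

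The albumin family genes (Alb, Afp and Afm, which code for the major plasma carrier albumin and its relatives) were taken as another cluster of liver genes, the only one compared. Their span of 92.655 kb on chromosome 5 held 6 CTCF, 11 Rad21 and 6 CNC peaks, or 6.48 CNC peaks per 100 kb against 14.3 in the fibrinogen gene span. With 100 kb on either side the direction was the opposite, with 17 CNC peaks in the albumin window (5.81 per 100 kb) against 6 in the fibrinogen window (2.48). The albumin window also had more Rad21 (12.6 against 6.20 per 100 kb) and CTCF peaks (8.88 against 6.61). Unlike the fibrinogen genes, the albumin family had 2 intra-TAD anchors within its span, and its CTCF peaks ranged from 20 to 526 fragments, against 22 to 63. The counts of CNC peaks were alike, 27 to 40 fragments in the albumin span and 33 to 40 in the fibrinogen span, over a median background of 8.50 and 12.5 fragments. No spread between mice is available to test these differences.

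At the gene starts themselves the members differed. Of the 3 genes only Fga had a CTCF peak or a Rad21 peak with any base within 1 kb of an annotated start (55.1% and 52.3% of 22372 protein-coding genes). The start of Fgg was 4887 bp from the nearest Rad21 summit, in its own intron, and 5444 bp from the nearest CTCF summit, the upstream anchor. The start of Fgb was 4088 bp from the nearest Rad21 and 4122 bp from the nearest CTCF summit, both at the CAC site before Plrg1. A CNC peak within 1 kb of a start (8.94% of all genes) was found for Fga alone, and there only at an annotated internal start 6604 bp into the gene, not at its 5′ end. That peak, 7.94 kb downstream, had its summit 1332 bp from the internal start.

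The rest of the pathway was described with the same count. Of 28 genes of coagulation and fibrinolysis, 15 had a CTCF peak (53.6%, against 55.1% of all protein-coding genes), 18 a Rad21 peak (64.3%, against 52.3%) and 9 a CNC peak (32.1%, against 8.94%) within 1 kb of a start. The CTCF share was thus at that of all genes. Those with a CNC peak were Cpb2, F10, F11, F12, Klkb1, Proc, Serpina10, Serpind1 and Serpinf2, which include the clotting factors X, XI and XII and prekallikrein of the contact pathway, and protein C, which inactivates clotting cofactors. Of 22 genes taken as acute phase genes, 13 had a CTCF peak (59.1%), 18 a Rad21 peak (81.8%) and 10 a CNC peak (45.5%). Those 10 were C3, Cp, Crp, Fgl1, Hp, Il1rn, Itih3, Itih4, Saa4 and Serpina3n, among them Hp (haptoglobin, which binds free hemoglobin) and Fgl1, a fibrinogen-like protein gene. By the same count, over any annotated start, 1 of the 3 fibrinogen genes had a CNC peak, the internal start of Fga. With the 5′ end of each gene alone, 0 of 3 fibrinogen, 7 of 28 coagulation and 9 of 22 acute phase genes had one, against 7.43% of all genes, and with 3 members no share can be compared.

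The promoters are shown as the sequence at the starts. A CTCF summit lay within the promoter of Fga and no peak within those of Fgb and Fgg. Whether the sequence bears on this difference was not tested. The sequences are from the RefSeq promoter table (GRCm38), where all 3 members were found, and matched the mm9 genome exactly at the coordinates given. They are the 250 bases before the RefSeq start on the gene's strand. The start used above for Fgg (82811781) and for Fgb (82853725) is a different one. Their printed bases end before it, at 82811645 and 82853786. Capitals mark matches on either strand to TTGCNNAA (C/EBP), CTGGGAA (the core of the interleukin-6 response element) and TTCNNNGAA (STAT), sequences that the factors of the acute phase response are known to bind.
Fga, plus strand, chr3:82829825-82830074: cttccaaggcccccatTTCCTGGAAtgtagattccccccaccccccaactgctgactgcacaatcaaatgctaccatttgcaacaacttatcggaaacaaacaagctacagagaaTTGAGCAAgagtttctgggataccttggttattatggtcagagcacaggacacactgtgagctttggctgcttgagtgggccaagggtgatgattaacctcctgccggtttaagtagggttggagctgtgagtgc
Fgb, minus strand, chr3:82853786-82854035: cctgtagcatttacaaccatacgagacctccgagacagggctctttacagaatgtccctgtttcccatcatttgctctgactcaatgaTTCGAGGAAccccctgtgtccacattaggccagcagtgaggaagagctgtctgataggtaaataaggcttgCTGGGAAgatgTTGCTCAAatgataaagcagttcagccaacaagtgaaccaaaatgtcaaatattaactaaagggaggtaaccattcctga
Fgg, plus strand, chr3:82811396-82811645: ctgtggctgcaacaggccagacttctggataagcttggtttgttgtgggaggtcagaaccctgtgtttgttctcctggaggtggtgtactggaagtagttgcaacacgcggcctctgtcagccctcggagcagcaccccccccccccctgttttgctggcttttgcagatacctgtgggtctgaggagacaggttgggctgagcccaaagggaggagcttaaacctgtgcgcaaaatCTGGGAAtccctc
A match to TTGCNNAA was found in Fga and Fgb (10.8% of 32851 promoters of the table), one to CTGGGAA in Fgb and Fgg (11.1%) and one to TTCNNNGAA in Fga and Fgb (8.30%). None of the 3 held CAAAGTCCA (HNF4A), TGTTTAC (FOXA) or the HNF1 motif, strings that 0.475%, 3.65% and 0.00913% of all promoters hold, so nothing can be read from their absence. These shares are of 300 bases, 50 of them after the start, and all matches of the members lay in the bases printed. A match is a string of letters and not a measured site.

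The same strings were sought within 100 bp of the summits of the 6 CNC peaks. None held TTGCNNAA (11.7% of all CNC peaks), TGTTTAC (4.32%), CAAAGTCCA (1.25%) or the HNF1 motif (0%), and with 6 peaks nothing can be read from these counts of 0. The peak 13.1 kb downstream held CTGGGAA (8.95% of all CNC peaks), and the peaks 5.78 kb upstream and 15.2 kb downstream held TTCNNNGAA (5.92% of all). Both of these are printed, as the CNC peaks with the STAT string, with 100 bases on each side of the summit.
CNC peak 5.78 kb upstream of Fga, plus strand, chr3:82824193-82824393: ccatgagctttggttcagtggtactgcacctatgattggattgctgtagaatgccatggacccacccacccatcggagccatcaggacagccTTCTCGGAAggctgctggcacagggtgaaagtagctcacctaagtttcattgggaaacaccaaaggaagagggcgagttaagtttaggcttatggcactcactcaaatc
CNC peak 15.2 kb downstream of Fga, plus strand, chr3:82845193-82845393: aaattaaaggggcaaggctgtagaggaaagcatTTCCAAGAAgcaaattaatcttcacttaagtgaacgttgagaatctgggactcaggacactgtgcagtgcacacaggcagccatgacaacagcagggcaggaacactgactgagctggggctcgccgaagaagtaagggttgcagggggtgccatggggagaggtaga
The first lies between Fgg and Fga, and the second between the facing 3′ ends, 876 bp from that of Fgb.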

How the data were processed

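The authors mapped reads with Bowtie2 and called peaks with MACS2 on mm9, per the labels. The deposited CTCF and Rad21 lists give, for each pooled peak, a score, the fold over the local background (a ratio) and the −log10 p-value, and the deposited class list gives for each site a class, a motif strand, a motif score and flags (0 or 1). The score rises with the significance of a peak. The study gives a range of reads over its samples, but the depth of each library behind a pooled peak is unknown, and the use of an input sample is not given in the sources used here. Fragments at the summit and the local background were recovered together from fold and −log10 p, and the count was within 0.05 of a whole number at 99.9961% of CTCF and 99.997% of Rad21 peaks. Intervals are exact Poisson 95% intervals of counting error, and conditional binomial intervals for ratios. PCR copies are not independent molecules.

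Peaks that overlapped a span by any base were counted in it and their position was that of the summit, and CTCF and Rad21 peaks sharing 1 bp were called co-bound. The study kept in its class list sites present in at least 2 livers, so class and strength are not independent. Genes were taken from GENCODE vM1 on NCBIM37, the same build as mm9. The CTCF matrix was learnt from the 1000 strongest TAD anchors outside chromosome 3, with a threshold passed by 5% of flanking windows. The members, gene lists, motifs and tests were chosen with earlier results of these data known, and all window peaks are named. The recovery of the fragment counts was tested on simulated data. Alternatives were other flanks (50 and 200 kb), a score of at least 100, other overlap rules, other measures of strength and other distances to a start. Versions were Matplotlib 3.10.9, pysam 0.24.0, pandas 2.3.3, SciPy 1.17.1, NumPy 2.4.6 and Python 3.11.15.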

Additional observations from a re-analysis of the deposited data

How the results depend on the processing

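A count or share was taken to have moved where it changed by more than 1.5 times, and the count of 3 fibrinogen genes where it changed at all. By that measure 7 values moved and 29 did not, with none reversed. Among the latter, the CTCF peaks went from 16 to 11 with a score of at least 100 and to 23 with flanks of 200 kb, and the share of windows with fewer peaks went from 59.8% to 84.4% (CTCF) and from 64.4% to 85.4% (Rad21) with tiles of the genome in place of gene windows. With a score of at least 100 the window held 9 Rad21 peaks in place of 15 and 2 CNC peaks in place of 6, the peak 5.78 kb upstream of Fga and the peak in its first intron, whose weak CTCF partner was lost. The share of genes with at least as many CNC peaks as the gene span went from 0.188% to 3.36%, and the CNC peaks between Fga and Fgb from 3 to 0 (both chosen after seeing the data). The number of fibrinogen genes with a CNC peak at a start went from 1 to 0 within 500 bp and to 0 when the 5′ end of the gene alone was used. The median percentile of the CTCF window peaks went from 47.4 by fragments to 30.7 by fold. The counts of CNC peaks in the gene span therefore rest on peaks of low score. No paired analysis was possible because the lists pool all samples of an antibody and carry no value per library, and no replicate could be left out for the same reason. Peaks below the authors' threshold cannot be told from absent binding, and fragment counts compare sites within a list, not mice.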
